A study of Mus musculus with 9 samples.

Results

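The genes described here are 10 that act in de novo lipogenesis, the making of fatty acids from sugar and other carbon, in mouse liver: Fasn, Acaca, Acacb, Acly, Scd1, Elovl5, Elovl6, Srebf1, Mlxipl and Thrsp. They were taken by symbol from a table of 24411 genes, in which each of the 10 had a row, and all 10 passed the filter on low counts that left 11199 genes for testing. The choice used no measured value of the table, but it was made with earlier results of these data known.

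The table held poly(A) RNA of 9 livers from mice that were 3 months of age, with 3 biological replicates in each of 3 groups. All mice carried floxed Atg7 on both copies, a gene needed to form autophagosomes. The group called cont. had no Cre. The Atg7-KO group had Cre driven by the albumin promoter, which is active in hepatocytes, so that Atg7 was to be lost in these cells. Loss in other cells of the liver was not measured. The Atg7-KO;p62-S351A group, shortened to S351A here, had floxed Atg7, the same Cre and a p62 allele on both copies in which a serine was replaced by alanine. That serine lies in the region of the selective autophagy adaptor p62 that binds KEAP1, the inhibitor of the transcription factor NRF2, and the groups were set up to ask what KEAP1 held in p62 bodies does to the liver when autophagy is lost. Groups follow the titles of the samples. The titles of S351A replicates 2 and 3 and their genotype entries disagree on the position of p62.

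Library totals ranged from 713835 to 15426566 counts, and cont. replicate 3 was the largest. The 3 S351A libraries were the smallest of the 9, and in this design low depth cannot be told apart from the p62 mutation. Atg7 ranged from 42.4 to 57.8 CPM in cont. and from 21.8 to 30.2 CPM in the 6 libraries with Cre. CPM are counts relative to the library total on a scale set by TMM factors, which correct for a few genes taking many counts. The sex read from Xist and Y-linked genes was male, female and male in cont., and male, female and female in both other groups, for replicates 1 to 3.

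In lipogenesis, citrate leaves the mitochondrion and is split by ATP citrate lyase to acetyl-CoA, acetyl-CoA carboxylase turns this into malonyl-CoA, fatty acid synthase builds palmitate from both, and elongases and desaturases then lengthen the chain and add double bonds. In liver, insulin acts on the pathway through SREBP-1c and sugar acts on it through ChREBP, so that the enzymes are made after a meal and are low in fasting. SREBP-1c and ChREBP bind promoters of many of the same genes, often beside general factors such as NF-Y.

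The promoters of these genes were searched because both regulators named above are themselves among the 10. Windows from RefSeq on GRCm38.p6, covering 250 bases before and 50 bases after an annotated start, were held for 9 of the 10 genes, with 12 windows in all, and not for Scd1. Motifs of 3 kinds were searched on both strands. CCAAT is the box that NF-Y binds, CACGTG is the E-box core that occurs in ChREBP and USF sites, and TCACNCCA is a sterol regulatory element. The 250 bases before the start are shown for 4 genes that lay lower in each Atg7-KO library than in each cont. library on the scale used for testing (Srebf1, Mlxipl, Thrsp and Elovl5), for Fasn, whose groups overlapped, and for Elovl6, which lay higher, with matches in capitals, and ATTGG in capitals is CCAAT on the other strand.

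Srebf1 (chr11:60210472-60210721, minus strand): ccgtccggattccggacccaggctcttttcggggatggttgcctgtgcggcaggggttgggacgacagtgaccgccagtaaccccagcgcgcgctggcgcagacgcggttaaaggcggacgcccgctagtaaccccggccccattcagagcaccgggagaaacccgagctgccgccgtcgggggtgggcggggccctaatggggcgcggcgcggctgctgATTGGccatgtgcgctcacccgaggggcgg
Mlxipl (chr5:135089640-135089889, plus strand): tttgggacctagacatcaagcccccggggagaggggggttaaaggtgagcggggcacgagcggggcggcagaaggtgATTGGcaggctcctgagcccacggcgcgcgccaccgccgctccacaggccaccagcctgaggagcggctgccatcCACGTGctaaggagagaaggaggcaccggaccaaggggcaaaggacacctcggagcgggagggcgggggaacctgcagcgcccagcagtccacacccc
Thrsp (chr7:97417551-97417800, minus strand): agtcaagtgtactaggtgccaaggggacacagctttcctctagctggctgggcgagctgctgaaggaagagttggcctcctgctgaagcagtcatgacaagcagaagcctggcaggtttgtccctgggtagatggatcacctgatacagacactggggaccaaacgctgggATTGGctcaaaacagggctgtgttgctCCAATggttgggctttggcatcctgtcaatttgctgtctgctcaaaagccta
Fasn (chr11:120824548-120824797, minus strand): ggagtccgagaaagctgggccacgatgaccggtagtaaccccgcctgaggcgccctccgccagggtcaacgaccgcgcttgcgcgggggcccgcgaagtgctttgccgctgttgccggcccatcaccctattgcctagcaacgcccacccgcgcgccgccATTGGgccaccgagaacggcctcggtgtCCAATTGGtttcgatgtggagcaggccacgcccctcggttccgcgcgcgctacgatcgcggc
Elovl5 (chr9:77917115-77917364, plus strand): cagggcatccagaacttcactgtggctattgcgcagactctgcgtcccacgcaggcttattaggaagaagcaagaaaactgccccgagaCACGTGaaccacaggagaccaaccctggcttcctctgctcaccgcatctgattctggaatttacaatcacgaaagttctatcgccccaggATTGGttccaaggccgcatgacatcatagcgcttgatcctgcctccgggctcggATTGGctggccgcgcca
Elovl6 (chr3:129532136-129532385, plus strand): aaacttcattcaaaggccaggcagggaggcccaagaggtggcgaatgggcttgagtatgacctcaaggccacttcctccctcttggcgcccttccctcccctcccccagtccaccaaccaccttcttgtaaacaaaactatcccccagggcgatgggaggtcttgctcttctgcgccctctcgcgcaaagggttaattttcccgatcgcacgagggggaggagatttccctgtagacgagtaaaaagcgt

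CCAAT occurred in at least 1 window of 7 of the 9 genes, namely Fasn, Acacb, Acly, Elovl5, Srebf1, Mlxipl and Thrsp. By window, it was in 8 of the 12, and of all 32851 RefSeq windows of this length, 37.4% held CCAAT. The Fasn window held 3 copies, the last 2 of which overlap, starting at -90, -62 and -59 from the start site, and the Thrsp window held 2, at -79 and -52. In Srebf1 the match shown lies at -30, a second window further upstream had none and the third had 1 at -166. In Elovl5 the copies lay at -71 and -17. The genes without the letters were Acaca and Elovl6, which are also those that lay higher in each Atg7-KO library than in each cont. library, a match that was noticed after the values were seen and was not tested. For Acaca the only window held began at chr11:84195188, inside the gene, which starts at 84129672. The Acacb window likewise began inside its gene, at chr5:114165268 against 114146535. Sequence before the first base of Acaca and of Acacb was thus not searched. The E-box occurred in Elovl5 at -161 and in Mlxipl at -98, against 7.15% of all windows, and TCACNCCA occurred in the second Mlxipl window at -136, against 4.36% of all windows. These matches describe letters in the windows and say nothing of binding, and a missing match says only that the letters are not in that window.

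Comparing Atg7-KO with cont., 6 of the 10 genes fell and 1 rose. Those that fell were Srebf1, Mlxipl, Thrsp, Acly, Acacb and Elovl5, and Acaca rose. Fasn, Scd1 and Elovl6 did not pass the test. A gene was called at an adjusted p under 0.05 and a fold change above 1.5. Unless another tool is named, adjusted p-values come from the quasi-likelihood F test of edgeR and are adjusted by Benjamini-Hochberg over the 11199 genes. Of all genes tested, 38.0% were called in this comparison, 19.9% higher and 18.1% lower. The median log2 fold change of the 10 genes was -1.43, beside -0.03 over all genes tested, and 8 of the 10 values were below 0. Without adjustment 8 of the 10 had a p under 0.05, beside 47.5% of all genes. Of the 10, on the TMM scale, 5 lay lower in all Atg7-KO libraries than in all cont. libraries (Acacb, Elovl5, Srebf1, Mlxipl and Thrsp) and 2 higher (Acaca and Elovl6), where 51.6% of all genes tested did not overlap, 24.9% lower and 26.7% higher. In S351A against cont., which uses the same 3 cont. libraries, Srebf1 and Mlxipl fell and Elovl6 rose, with 28.6% of all genes called, 15.6% higher and 13.0% lower. There the median of the 10 genes was -0.88, beside -0.03 over all genes, and 6 of the 10 had an unadjusted p under 0.05, beside 41.0% of all genes. Elovl5, Srebf1 and Mlxipl did not overlap cont. and lay lower, and Elovl6 lay higher, where 38.0% of all genes tested did not overlap, 18.4% lower and 19.6% higher. In S351A against Atg7-KO, edgeR called none of the 10 genes, 1 of them had an unadjusted p under 0.05, DESeq2 called 1 and limma-voom 0. In that comparison 0.00893% of all genes tested were called and 6.60% had an unadjusted p under 0.05. Elovl5 alone of the 10 did not overlap, and lay higher in S351A, where 16.9% of all genes did not overlap, 7.67% higher and 9.23% lower.

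**Figure D1:**
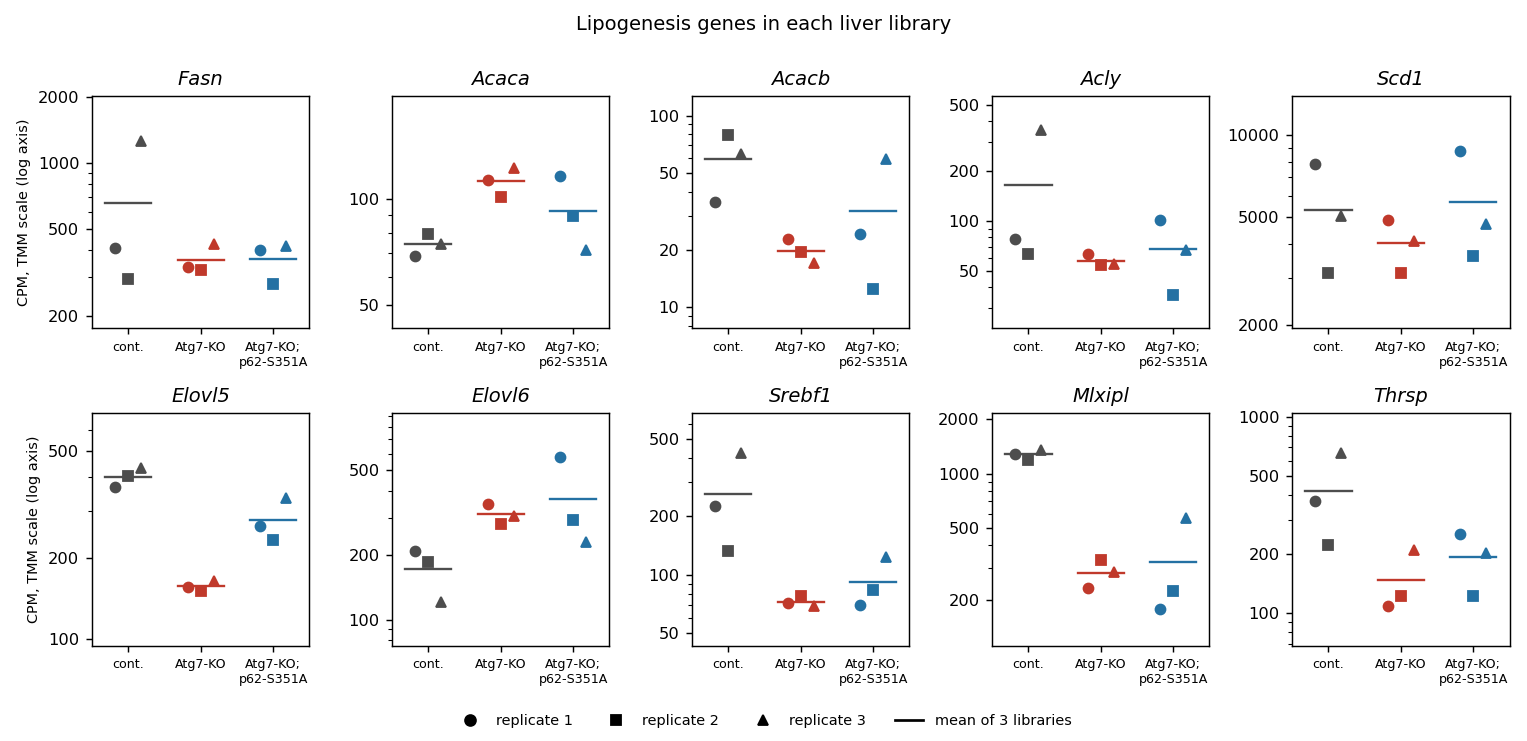
Level of each of the 10 genes in each of the 9 libraries, in CPM on the TMM scale with a log axis that differs between panels. Marker shape gives the replicate number and the line the mean of 3 libraries; Mlxipl separates cont. from both other groups most widely, while in Fasn and Acly a single cont. library, replicate 3, lies far above all others.

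**Figure D2:**
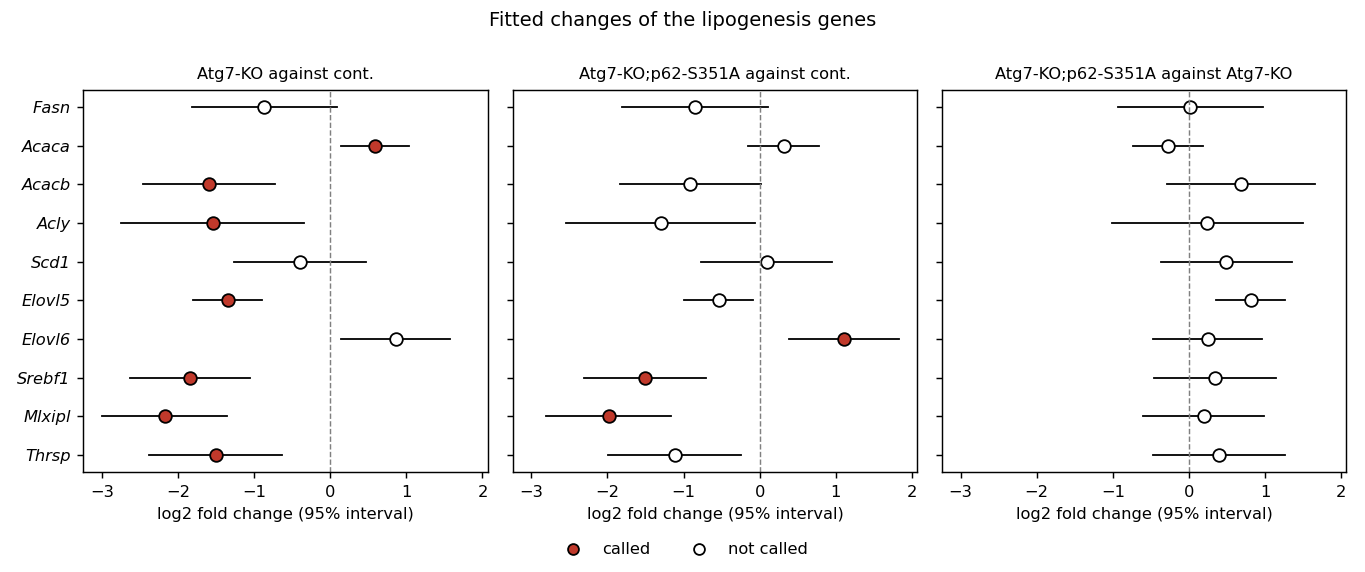
Fitted log2 fold change of each gene in the 3 comparisons, with 95% intervals from the edgeR fit to all 9 libraries. Filled points passed both thresholds; 7 did in the left panel, 3 in the middle panel and 0 in the right panel, where the intervals span 0 for all but Elovl5.

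Srebf1 encodes SREBP-1, and its shorter form SREBP-1c is the insulin-responsive activator of lipogenic genes (ENSMUSG00000020538.15, chr11:60199089-60222581, minus strand). Its level was 225, 133 and 425 CPM in cont. replicates 1 to 3, 71.7, 77.5 and 69.1 CPM in Atg7-KO and 70.1, 83.2 and 123 CPM in S351A. On the TMM scale each library of the groups with Cre lay below each cont. library, although cont. itself spread 3.2-fold. Scaled by library totals, Srebf1 in S351A replicate 3 was at 140.1 CPM, above the 106 CPM of cont. replicate 2. Srebf1 fell by 1.85 on the log2 scale in Atg7-KO against cont. (SE 0.36, edgeR adjusted p = 0.00179), and this call was kept under all 20 alternatives. Without cont. replicate 3 the log2 fold change was -1.30. Against the same controls, Srebf1 fell by 1.51 in S351A (SE 0.37, edgeR adjusted p = 0.00962), and the log2 fold change was -0.96 without cont. replicate 3 and -0.98 with scaling by library totals, called in both. The call was lost without S351A replicate 1, at -1.36 on the log2 scale (edgeR adjusted p = 0.0503, 1.43e-05 to 0.0503 over the 20 alternatives). The table does not separate SREBP-1a from SREBP-1c. Srebf1 shares 109 exon bases with Rai1 on the other strand, which was itself at 6.21 to 22.5 CPM, and 66 with Mir6922, which was at 0 in all 9 libraries.

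Mlxipl encodes ChREBP, the glucose-responsive activator of lipogenic and glycolytic genes (ENSMUSG00000005373.13, chr5:135089890-135138382, plus strand). It had the lowest log2 fold change of the 10 in both comparisons with cont. Its level was 1290.5, 1186 and 1350.0 CPM in cont. livers, 232, 329.9 and 283 CPM in Atg7-KO and 178, 224 and 565 CPM in S351A. The 3 cont. values lay within 1.14-fold of each other, and the highest library outside cont. lay far below the lowest of them. Mlxipl fell by 2.18 on the log2 scale, 4.53-fold, in Atg7-KO (SE 0.38, edgeR adjusted p = 8.27e-04). In S351A it fell by 1.99, 3.96-fold (SE 0.38, edgeR adjusted p = 0.00247). Both calls were kept under all 20 alternatives. S351A replicate 3 was the highest library outside cont., and without it S351A differed from Atg7-KO by -0.49 on the log2 scale, against 0.19 with it. The table does not separate forms of Mlxipl by start site, and its second promoter window began downstream of the one shown, at chr5:135106641. Mlxipl shares 235 exon bases with Gm43500 on the other strand, and how strand was handled in counting is not given in the sources used here.

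Thrsp encodes Spot 14, a small nuclear protein that is induced with the lipogenic enzymes by thyroid hormone and carbohydrate (ENSMUSG00000035686.8, chr7:97412938-97417730, minus strand). Its level was 375, 223 and 655 CPM in cont. livers, 109, 122 and 210.5 CPM in Atg7-KO and 253, 123 and 202 CPM in S351A. On the TMM scale the lowest cont. library lay above all Atg7-KO libraries but below S351A replicate 1. Scaled by library totals, Thrsp in Atg7-KO replicate 3 was at 236 CPM, above the 178 CPM of cont. replicate 2. Thrsp fell by 1.51 in Atg7-KO against cont. (SE 0.40, edgeR adjusted p = 0.0102). The call was lost with scaling by library totals and without Atg7-KO replicate 1, where the adjusted p was 0.0596 and 0.0546 (edgeR, 2.93e-05 to 0.0596 over the 20 alternatives). In S351A against cont. the log2 fold change was -1.12 (SE 0.40), and it did not pass the test at an edgeR adjusted p of 0.0544; it did in 4 of the 20 alternatives, among them the replicate block, at -1.02 (edgeR adjusted p = 0.0169), and the fit without cont. replicate 2, at -1.44 (edgeR adjusted p = 0.0132). It was at -0.64 without cont. replicate 3 and at -0.60 with scaling by library totals (edgeR adjusted p = 0.213 and 0.248, with 0.00146 to 0.248 over the 20 alternatives).

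Acly, ATP citrate lyase, makes the cytosolic acetyl-CoA from which the chain is built (ENSMUSG00000020917.17, chr11:100476353-100528000, minus strand). Its level was 77.6, 63.03 and 356 CPM in cont. livers, 63.1, 54.2 and 54.9 CPM in Atg7-KO and 101, 36.01 and 66.6 CPM in S351A. Apart from cont. replicate 3, all libraries lay between 36.00 and 101 CPM, and cont. overlapped both other groups. The call in Atg7-KO against cont., at -1.54 on the log2 scale (SE 0.55, edgeR adjusted p = 0.0431), rested on that library. Without it the log2 fold change was -0.29 (edgeR adjusted p = 0.492, 7.23e-05 to 0.492 over the 20 alternatives), and 13 of the 20 alternatives did not call Acly. For S351A against cont. it was -1.30 (SE 0.57, edgeR adjusted p = 0.107), from 88, 29 and 54 counts in the S351A libraries, and -0.05 without cont. replicate 3.

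Acaca and Acacb encode both acetyl-CoA carboxylases. ACC1, from Acaca, is cytosolic and makes malonyl-CoA for synthesis, and ACC2, from Acacb, sits at the mitochondrion, where malonyl-CoA holds back the entry of fatty acids for oxidation. They lay in opposite directions. Acaca (ENSMUSG00000020532.18, chr11:84129672-84401651, plus strand) was at 68.7, 79.6 and 74.4 CPM in cont. livers, 113, 101 and 122 CPM in Atg7-KO and 116, 89.4 and 71.6 CPM in S351A. Acacb (ENSMUSG00000042010.16, chr5:114146535-114250761, plus strand) was at 35.6, 79.2 and 62.9, 22.7, 19.4 and 16.9 and 24.1, 12.4 and 59.2 CPM in the same groups. In Atg7-KO each library lay above all cont. libraries for Acaca and below all of them for Acacb, while S351A overlapped cont. for both on the TMM scale and, with scaling by library totals, for Acacb alone of them. Acaca rose by 0.59 on the log2 scale in Atg7-KO against cont. (SE 0.21, edgeR adjusted p = 0.0391), 1.51-fold and so barely past the threshold of 1.5. It was not called in 11 of the 20 alternatives, among them all 9 that left out a library, with log2 fold changes there between 0.51 and 0.66. The adjusted p ran from 0.00105, with scaling by library totals and a log2 fold change of 1.13, to 0.146. Acacb fell by 1.59 (SE 0.40, edgeR adjusted p = 0.00748), a call lost in 1 alternative, scaling by library totals (log2 fold change -1.04, edgeR adjusted p = 0.0538, 3.30e-06 to 0.0538 over the 20 alternatives). The log2 fold change of Acaca in S351A against cont. was 0.31 (SE 0.21, edgeR adjusted p = 0.295) and that of Acacb -0.91 (SE 0.43, edgeR adjusted p = 0.128). Acaca was called higher there with scaling by library totals, at 0.80 (edgeR adjusted p = 0.0140). With totals that omit the 20 most counted genes it was called at 0.71 (edgeR adjusted p = 0.0250). These scalings also moved the median of all genes, by 0.50 and 0.40. The Acacb values of S351A came from 21, 10 and 48 counts. Replicate 3 of S351A, at the cont. level, set its mean. Without that replicate Acacb was called in S351A against cont., at -1.72 on the log2 scale (edgeR adjusted p = 0.00856, 0.00856 to 0.508 over the 20 alternatives).

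Fasn encodes fatty acid synthase, which joins malonyl-CoA units into palmitate (ENSMUSG00000025153.9, chr11:120805846-120824547, minus strand). Its level was 409, 294 and 1267 CPM in cont. livers, 335, 323 and 425 CPM in Atg7-KO and 399, 281 and 418 CPM in S351A. Of the 9 libraries, 8 lay between 281 and 425 CPM and cont. replicate 3 alone was above that. The log2 fold change was -0.87 in Atg7-KO against cont. (SE 0.44, 95% interval -1.82 to 0.09, edgeR adjusted p = 0.140) and -0.85 in S351A against cont. (SE 0.44, edgeR adjusted p = 0.172). Without cont. replicate 3 these were 0.0346 and 0.0486. Without cont. replicate 2 Fasn was instead called lower in both, at -1.23 (edgeR adjusted p = 0.0262, 0.0216 to 0.934 over the 20 alternatives) and -1.21 (edgeR adjusted p = 0.0362, 0.0217 to 0.913). The direction of Fasn against cont. therefore hung on which cont. libraries were used. Between S351A and Atg7-KO the difference was 0.02 on the log2 scale, with a 95% interval of -0.94 to 0.98, which still spans changes of close to 1 in either direction.

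**Figure D3:**
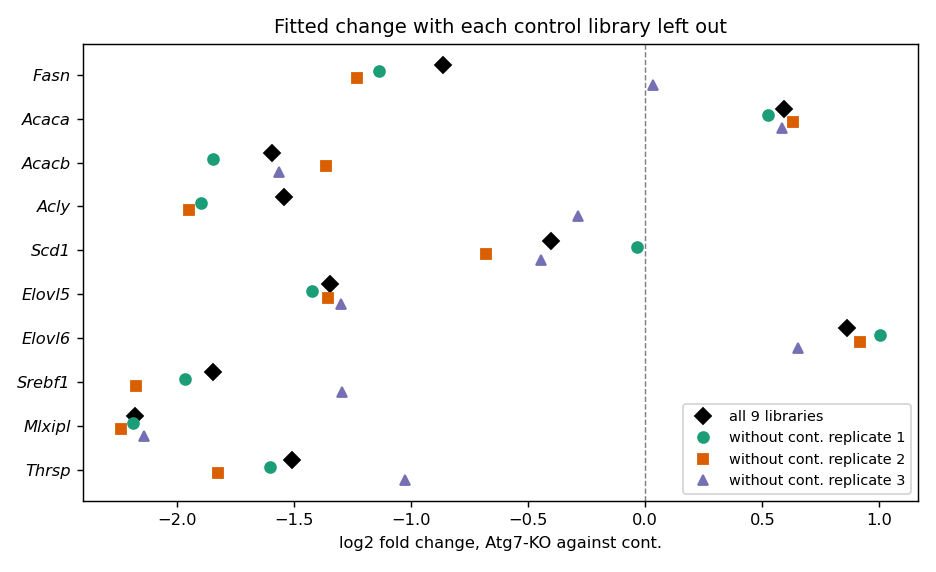
Log2 fold change of the 10 genes in Atg7-KO against cont. with all 9 libraries and with each cont. library left out in turn. Leaving out cont. replicate 3 moved Acly from -1.54 to -0.29 and Fasn across 0, while Mlxipl and Elovl5 moved little.

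The enzymes that finish the chain lay in different directions. Scd1, the desaturase that makes oleate and palmitoleate, had the highest level of the 10 (ENSMUSG00000037071.3, chr19:44394455-44407879, minus strand). It was at 7823, 3124 and 5034 CPM in cont. livers, 4893, 3120.2 and 4083 CPM in Atg7-KO and 8732, 3594 and 4704 CPM in S351A, and the groups overlapped. Within every group replicate 1 was the highest and replicate 2 the lowest. Its log2 fold change was -0.40 in Atg7-KO against cont. (95% interval -1.27 to 0.46, edgeR adjusted p = 0.457) and 0.09 in S351A against cont. (95% interval -0.77 to 0.96, edgeR adjusted p = 0.889). The first of these turned to 0.12 with scaling by library totals.

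Elovl5 lengthens polyunsaturated chains and palmitoleate (ENSMUSG00000032349.13, chr9:77917364-77984519, plus strand), and Elovl6 lengthens palmitate to stearate (ENSMUSG00000041220.10, chr3:129532355-129638495, plus strand). Elovl5 was at 369, 404 and 431 CPM in cont. livers, 156, 151 and 165 CPM in Atg7-KO and 263, 233 and 333 CPM in S351A, so that on the TMM scale the 3 groups did not overlap and S351A lay between the others. Scaled by library totals instead, Elovl5 was at 309, 322 and 312 CPM in cont. livers and 289, 247 and 378 CPM in S351A, which overlapped, while Atg7-KO, at 183, 169 and 186 CPM, still lay below both. Elovl5 fell by 1.35 on the log2 scale in Atg7-KO against cont. (SE 0.21, edgeR adjusted p = 3.87e-04), a call kept under all 20 alternatives. Its log2 fold change in S351A against cont. was -0.54 (SE 0.21, edgeR adjusted p = 0.0704), which did not pass the test. It was -0.04 with scaling by library totals and -0.14 with totals that omit the 20 most counted genes, and it was called without S351A replicate 3, at -0.71 (edgeR adjusted p = 0.0274). In S351A against Atg7-KO it was 0.81 (SE 0.21, 95% interval 0.36 to 1.27), with an unadjusted p of 0.00211 and an adjusted p of 0.382 by edgeR's quasi-likelihood test. DESeq2 called this difference at an adjusted p of 0.0114, while the adjusted p ran from 0.0114 to 1.00 over the 20 alternatives and DESeq2 was the only one of them to call it.

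Elovl6 was at 209, 186 and 121 CPM in cont. livers, 347, 279.6 and 306 CPM in Atg7-KO and 580.2, 294 and 231 CPM in S351A. Every library of both other groups lay above every cont. library. Elovl6 rose by 1.11 on the log2 scale in S351A against cont. (SE 0.33, edgeR adjusted p = 0.0258). The call was lost without S351A replicate 1, the highest of the 9 libraries, at 0.61 (edgeR adjusted p = 0.155), without cont. replicate 3, at 0.89 (adjusted p = 0.0764), and in a fit to the 6 compared libraries (adjusted p = 0.0575), with edgeR adjusted p from 0.00515 to 0.155 over the 20 alternatives. In Atg7-KO against cont. the log2 fold change was 0.86 (SE 0.33) and missed the threshold at an edgeR adjusted p of 0.0555. There 13 of the 20 alternatives called it, DESeq2 among them at an adjusted p of 0.0310, with adjusted p from 0.00697 to 0.155. Elovl6 shares 34 exon bases with Gm35986 on the other strand.

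Related enzymes were also set against each other within each library, since such a ratio does not depend on how libraries are scaled. These ratios were chosen after the values were seen. They use levels per kb of exon. Acacb over Acaca was 0.919, 1.76 and 1.5 in cont., 0.357, 0.341 and 0.246 in Atg7-KO and 0.369, 0.246 and 1.47 in S351A. S351A replicates 1 and 2 thus lay below all cont. libraries and replicate 3 in the cont. range. Elovl6 over Elovl5 was 0.310, 0.253 and 0.153 in cont., 1.22, 1.01 and 1.01 in Atg7-KO and 1.21, 0.690 and 0.379 in S351A, so that all cont. libraries lay below all others, by 4.7-fold for Atg7-KO and 2.98-fold for S351A as geometric means. Scd2 encodes a desaturase that adult hepatocytes barely make, and Scd2 over Scd1 was 5.82e-04, 0.00101 and 9.40e-04 in cont., 0.0295, 0.0423 and 0.0393 in Atg7-KO and 0.0208, 0.0198 and 0.0146 in S351A. This ratio was 44.7-fold higher in Atg7-KO than in cont. and did not overlap between any of the 3 groups. In 15 comparisons of 5 such ratios, the lowest p of the two-sided exact permutation test over libraries was 0.1, the smallest that 3 libraries against 3 allow, and 0.188 after Benjamini-Hochberg adjustment over the 15.

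**Figure D4:**
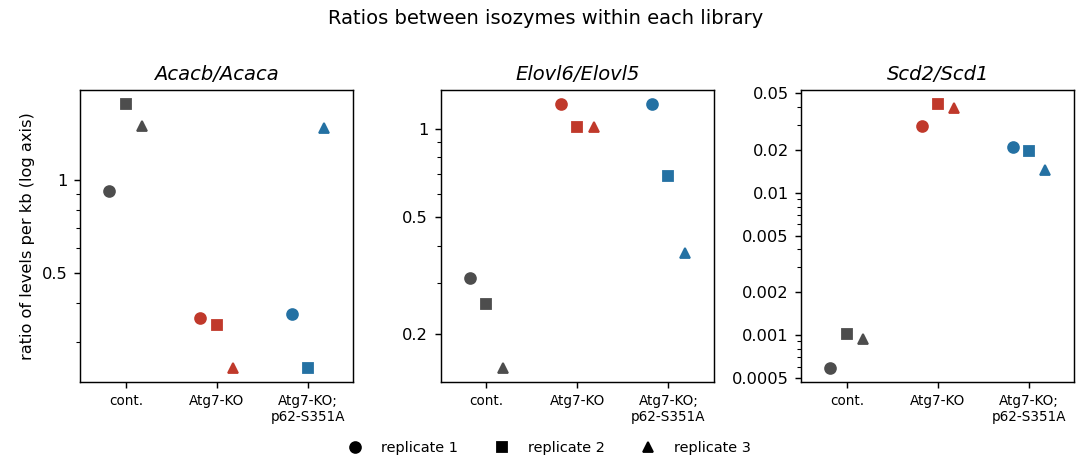
Ratios of levels per kb of exon between related enzymes in each of the 9 libraries, on log axes. Elovl6 over Elovl5 and Scd2 over Scd1 were above every cont. value in all libraries of both other groups, while Acacb over Acaca in S351A split into 2 low libraries and 1 at 1.47.

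Per kb of exon, Scd1 stood first in all 3 groups, with means of 1089, 824 and 1160.4 CPM per kb for cont., Atg7-KO and S351A, and its range did not overlap that of the next gene in any group. In cont. it was followed by Mlxipl (230.3), Thrsp (191), Elovl5 (114), Fasn (59.97), Srebf1 (46.3), Acly (31.4) and Elovl6 (26.7), each overlapping its neighbour, and by Acacb (6.15) and Acaca (4.35) apart from the rest. In Atg7-KO, Elovl6 at 48.3 CPM per kb had moved from the eighth place to the fourth, beside Mlxipl at 50.9 and Elovl5 at 44.8, whose ranges it overlapped. Acacb, at 2.04, lay below Acaca, at 6.56, there, and their ranges did not overlap.

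In cont. and S351A, though not in Atg7-KO, livers of one group differed more for the 10 genes than for the median gene. The median SD of log2 CPM between the 3 cont. libraries was 0.62 for the 10 genes, beside 0.36 over all genes tested. In Atg7-KO it was 0.18, beside 0.19, and in S351A 0.59, beside 0.37. The cont. spread was widest for Acly, with an SD of 1.36, Fasn, with 1.1, and Srebf1, with 0.838, and narrowest for Mlxipl, with 0.0946.

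The genes most like Fasn across the 9 libraries, among 8805 genes with a mean of at least 10 CPM, were Bhlhe40 (Pearson r of log2 CPM 0.98), Acss2 (0.95), Lrrc8d (0.95), Steap3 (0.94) and Fech (0.93). Without cont. replicate 3 these were 0.94, 0.53, 0.86, 0.57 and 0.52, so for Acss2, Steap3 and Fech the likeness lay largely in that library. Those most like Srebf1 were Sos1 (0.98), Phyh (0.98), Hsd3b3 (0.98), Ampd2 (0.98) and Tob1 (0.97), with values of 0.94 to 0.98 without cont. replicate 3. These correlations describe 9 libraries that differ in group and depth.

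Further genes of the pathway were taken from lists of its steps. Of 11 genes tested that supply carbon and NADPH, 3 were called higher in Atg7-KO against cont. (G6pdx, Pgd and Tkt) and 3 lower (Idh1, Khk and Slc2a2). G6pdx, Pgd and Tkt act in the pentose phosphate pathway. Among the 13 other genes of elongation and desaturation 4 rose (Elovl7, Fads3, Hacd2 and Scd2) and 2 fell (Elovl3 and Tecr). Of 13 genes of triglyceride synthesis and storage, Lpin3 and Pnpla3 rose and Acsl1 and Dgat2 fell. Of 9 genes that process SREBPs, Mbtps2 rose, and Insig2 and Scap fell. Of 16 upstream regulators, 0 rose and 4 fell (Mlx, Nr0b2, Rxra and Usf2), and Mlx is the partner with which ChREBP binds DNA. Of 9 genes that act on acetyl-CoA carboxylase, Prkaa1 and Prkab2, subunits of AMP-activated kinase, rose, and Mid1ip1, Mlycd and Prkag2 fell. Of all genes tested, 19.9% were called higher and 18.1% lower. The same 6 lists had, in S351A against cont. and in this order, 2, 3, 1, 1, 0 and 0 genes higher and 2, 1, 2, 4, 2 and 2 lower, where 15.6% of all genes tested were called higher and 13.0% lower. The 4 of 9 that process SREBPs were Insig2, Mbtps1, Rnf139 and Scap. In S351A against Atg7-KO edgeR called 0 genes of any of them, as it called 1 gene in the whole table.

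A further 19 genes were named whatever their values. Scd2 had the highest log2 fold change among them, 5.10 in Atg7-KO and 4.66 in S351A against cont. (edgeR adjusted p = 4.21e-06 and 1.55e-05), from 5.09, 3.52 and 5.29 CPM in cont. livers to 161, 148 and 179 CPM in Atg7-KO and 203, 79.5 and 76.5 CPM in S351A. Acsl1, which activates fatty acids with CoA, was at 1638, 990.2 and 984 CPM in cont. livers, 203, 154 and 131 CPM in Atg7-KO and 206, 161 and 253 CPM in S351A, and fell by 2.89 and 2.54 on the log2 scale (edgeR adjusted p = 2.61e-05 and 1.20e-04). Both genes separated the groups with Cre from cont. in every library. Pnpla3, a target of SREBP-1c and ChREBP that encodes a lipid droplet protein, rose by 1.77 and 2.5 (edgeR adjusted p = 0.00185 and 6.34e-04), from 1.27, 4.58 and 2.96 CPM in cont. livers to 9.74, 12.2 and 10.1 CPM in Atg7-KO and 14.9, 19.9 and 18.5 CPM in S351A. In direction its RNA was thus opposite to that of Srebf1 and Mlxipl, and the activity of either regulator was not measured. The Pnpla3 values came from 2, 13 and 33 counts in cont. livers, 42, 34 and 22 in Atg7-KO and 13, 16 and 15 in S351A. Dgat2, which adds the last chain of a triglyceride, fell by 1.02 and 1.04 (edgeR adjusted p = 0.0121 and 0.0163). In Atg7-KO the call of Dgat2 was lost with scaling by library totals (-0.49, edgeR adjusted p = 0.176), with totals that omit the 20 most counted genes (adjusted p = 0.104) and without Atg7-KO replicate 1 (adjusted p = 0.0640), with adjusted p from 0.00193 to 0.176 over the 20 alternatives.

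Elovl3, an elongase that is far higher in male than in female mouse liver, was at 882, 17.96 and 654 CPM in cont. livers, 6.96, 0 and 0 CPM in Atg7-KO and 39.1, 1.24 and 2.47 CPM in S351A. Among male libraries only, cont. replicates 1 and 3 lay above both libraries with Cre, and among female libraries cont. replicate 2 lay above the other 4, of which those of Atg7-KO had 0 counts. Scap, the escort of SREBPs, fell by 0.82 on the log2 scale in Atg7-KO and 0.67 in S351A (edgeR adjusted p = 0.00652 and 0.0289), and Insig2, which holds Scap in the endoplasmic reticulum, fell by 0.94 and 0.93 (edgeR adjusted p = 0.0160 and 0.0261). In Atg7-KO against cont. both calls were lost with scaling by library totals and with totals that omit the 20 most counted genes. That of Insig2 was lost in 6 of the 20 alternatives, among them those that omit cont. replicate 3 (adjusted p = 0.0582) or, of the Atg7-KO libraries, replicate 1 (0.0782) or replicate 3 (0.0596), with adjusted p from 0.00267 to 0.238 over the 20. Mid1ip1, the partner of Thrsp, was called in Atg7-KO at -1.47 (edgeR adjusted p = 0.0307) and not in S351A at -1.36 (edgeR adjusted p = 0.0863). The call in Atg7-KO was lost in 9 of 19 alternatives, among them scaling by library totals, limma-voom, sex as a covariate and leaving out any single Atg7-KO library. It was also lost without cont. replicate 3, where Mid1ip1 was at -0.63 on the log2 scale (edgeR adjusted p = 0.259, 7.94e-05 to 0.259 over the 19 alternatives).

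The other 11 named genes (Me1, Pklr, Slc25a1, Acss2, Fads1, Fads2, Elovl2, Insig1, Nr1h3, Gpam and Lpin1) did not pass the test against cont. in either group. Pklr, a classical target of ChREBP that encodes liver pyruvate kinase, was at 94.1, 91.9 and 234 CPM in cont. livers, 186, 202 and 217 CPM in Atg7-KO and 193, 99.3 and 131 CPM in S351A, so that on the TMM scale each of its Atg7-KO values lay within the cont. range. Its log2 fold change in Atg7-KO against cont. was 0.51, and it was called higher without cont. replicate 3, at 1.11 (edgeR adjusted p = 0.00686), with scaling by library totals and with totals that omit the 20 most counted genes. Leaving out a single cont. library also made Acss2 (without replicate 1 or 2), Fads1 and Fads2 (without replicate 1), Gpam (without replicate 2) and Nr1h3 (without replicate 3) called lower in Atg7-KO, with log2 fold changes of -0.65 to -1.17. Lpin1, a phosphatidate phosphatase gene that rises in fasting, was at 71.2, 1280.0 and 57.6 CPM in cont. livers, and replicate 2 stood alone there. Without that library Lpin1 was called higher in Atg7-KO against cont., at 2.41 on the log2 scale (edgeR adjusted p = 8.44e-04, up to 0.978 over the 20 alternatives), against -0.46 with it. In the same cont. library Fasn was lowest of the 3. The plot of further genes by library shows these values beside those of the other groups.

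**Figure D5:**
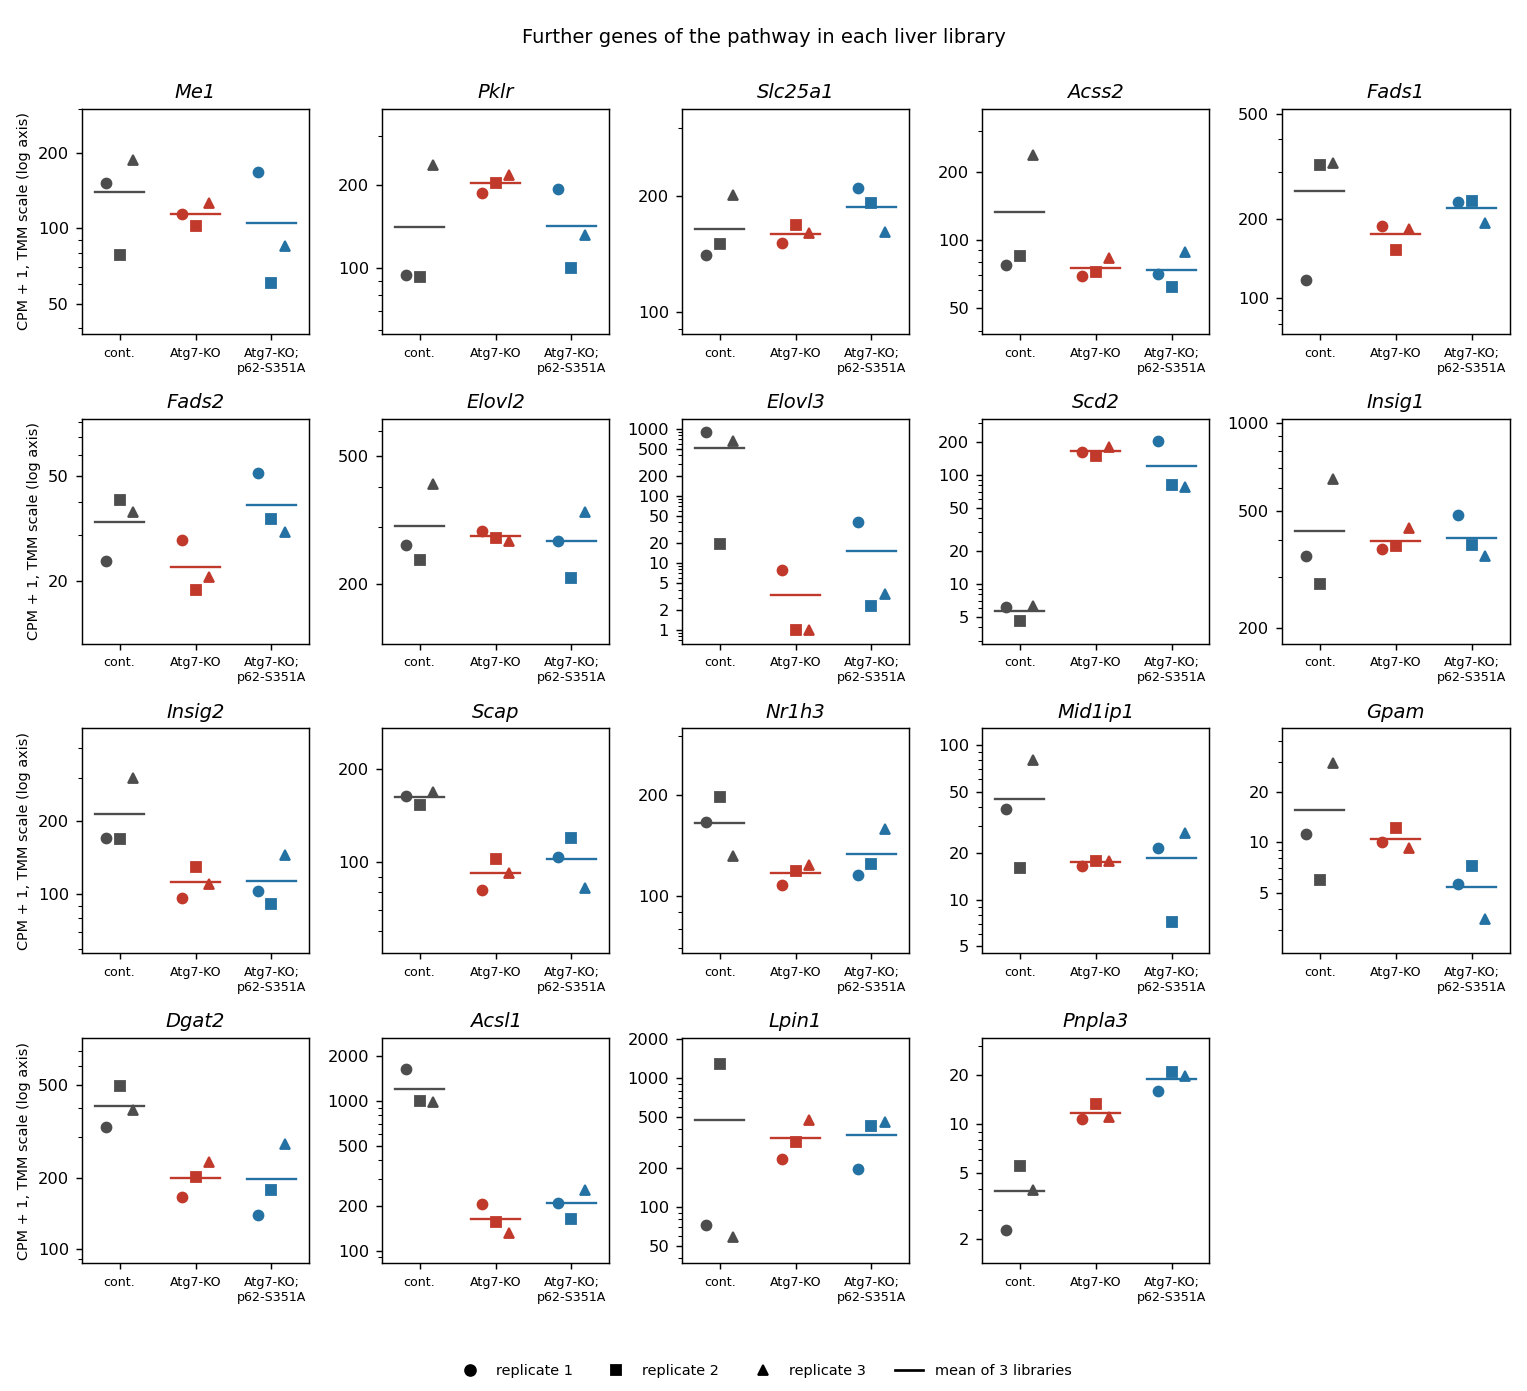
Levels of 19 further genes of the pathway in each library, as CPM + 1 on the TMM scale with a log axis that differs between panels. Scd2, Pnpla3 and Acsl1 separate cont. from both other groups, whereas Lpin1 and Elovl3 are spread widely within cont.

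Most hepatocyte markers tested fell in both groups with Cre, and most ductular and stellate markers tested rose, where 18.1% of all genes were called lower and 19.9% higher in Atg7-KO, and 13.0% lower and 15.6% higher in S351A. Of 7 hepatocyte markers tested 5 were called lower (Alb, Apoa1, Asgr1, Cps1 and Ttr) in both comparisons with cont. The other 2, Apob and Hnf4a, did not pass the test, with log2 fold changes of 0.22 and 0.38 in Atg7-KO and 0.30 and 0.29 in S351A. The summed level of the list was 45997 to 101495 CPM in cont. livers, 33430 to 40229 CPM in Atg7-KO and 31607 to 44380.0 CPM in S351A. In bulk tissue fewer hepatocytes and less RNA per hepatocyte cannot be told apart. All 5 ductular markers tested were higher, with sums of 47.5 to 83.3 CPM in cont. livers, 823 to 1211 CPM in Atg7-KO and 723 to 1204 CPM in S351A, as were 5 of 6 stellate markers, with 252 to 515, 1207 to 1668 and 1118 to 1615 CPM, and 5 of 7 macrophage markers in Atg7-KO and 4 of 7 in S351A. Of 5 endothelial markers tested, Clec4g and Stab2 were called lower in Atg7-KO and Lyve1 higher in both groups, with median log2 fold changes of -1.03 in Atg7-KO and -0.76 in S351A over the 5, and their sums were 92.2 to 176 CPM in cont. livers, 126 to 146 CPM in Atg7-KO and 107 to 137 CPM in S351A. Adipocytes also express the lipogenic enzymes, and the 6 adipocyte markers had at most 8 counts in any library, with Lep at 0 in all 9. The part of any of these cell types, adipocytes included, in the levels of the 10 genes was not tested. With sex as a covariate, 5 of the 10 genes were called lower and 2 higher in Atg7-KO against cont., with a median of -1.15, beside -0.015 over all genes tested. Thinned to the smallest library, 5 were called lower and 2 higher, with a median of -1.26, beside 0.001 over all genes tested. The share of all genes called is not given for either fit, so these counts have no background of their own. When libraries were scaled by their totals, the median over all genes shifted by 0.55 for Atg7-KO and 0.50 for S351A against cont., and the 10 genes had medians of -0.87 and -0.35. The members kept their sign under that scaling in these 2 comparisons, apart from Scd1 in Atg7-KO.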

How the data were processed

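Poly(A) RNA was sequenced as 75-base single-end reads. Per the submitters' processing notes and the study's methods, the authors used Trim Galore, STAR with the mm10 genome and RSEM, with versions, annotation and strand setting not given in the sources used here. The values deposited by the authors are expected counts, not scaled between libraries, of which 4.40% to 7.75% per library were not whole, and they were rounded. Tests were run in edgeR 4.0.16 (R 4.3.3). The filter filterByExpr (minimum count 10, minimum total 15) kept 11199 genes, TMM factors scaled the libraries, and the 9 libraries entered a single quasi-likelihood fit with group as its factor, with Benjamini-Hochberg adjustment. Standard errors (SE) of log2 fold changes follow from the F statistic, and 95% intervals use the t distribution. A gene was called at an adjusted p under 0.05 and a fold change above 1.5, the thresholds of the study, which used DESeq2. Levels are CPM on the TMM scale. Levels per kb use the exon length in GENCODE M21 for mm10, which also gave positions. A count of 3 in a library corresponded to 0.269 to 3.73 CPM. Reads had no molecular identifiers. The intervals are for differences between groups, from a spread between these livers that was pooled over the 3 groups and moderated across genes.

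The 10 genes and the pathway and marker lists were chosen with earlier results of these data known. The 19 further genes were named whatever their values. Some genes and 1 list of the pathway are not reported here. Log2 CPM values for likeness used a prior count of 2. The tests were checked on simulated data drawn with the same extra spread for every gene and no outlying library. They were not checked on data where 1 library stands apart, as cont. replicate 3 does for Fasn and Acly. The 20 alternatives were RLE scaling, scaling by library totals or by totals that omit the 20 most counted genes, testing all genes, requiring 10 counts in each library, the tools DESeq2 1.42.0 and limma-voom (limma 3.58.1), a fit to the 6 libraries compared, a replicate block, inferred sex as a covariate, thinning every library to 713835 counts, and leaving out each library. An adjusted p under 0.01 was used beside these, only for the number of the 10 genes called. The labels do not say what a replicate number shares. Across genes, same-numbered livers deviated together with r of 0.160 to 0.235 between cont. and S351A, with r of -0.041 to 0.248 between cont. and Atg7-KO and 0.074 to 0.306 between Atg7-KO and S351A. The main fit did not pair libraries by number in any comparison, and the replicate block was an alternative only. Replicates 1 and 2 also shared the inferred sex in all groups. Columns of the authors' own comparisons were not used. Promoter windows are from RefSeq on GRCm38.p6, the assembly that mm10 represents.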

Additional observations from a re-analysis of the deposited data

How the results depend on the processing

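Of 600 values of the 10 genes under the alternatives, 519 kept their direction and their side of the thresholds, 31 lost a call, 30 gained one and 20 changed sign. Mlxipl in both comparisons with cont., and Srebf1 and Elovl5 in Atg7-KO against cont., kept their calls under all 20 alternatives. Where a call was lost or a sign changed, the cause was not tested beyond what each alternative changes. The S351A values rested on the fewest counts, as few as 10 in a library for Acacb.

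The number of the 10 genes called higher in Atg7-KO against cont. was 1, and 2 with scaling by library totals, with totals that omit the 20 most counted genes, with a minimum of 10 counts in each library, with DESeq2, with limma-voom, in the 6 libraries alone, with sex as a covariate and after thinning, and 0 with an adjusted p under 0.01. Leaving out a library gave 0 to 1. Those called lower numbered 6, and 3 with scaling by library totals, 4 at an adjusted p under 0.01 and 4 to 7 with a library left out: 4 without Atg7-KO replicate 1 and 7 without cont. replicate 2. With no filter Fasn was also called lower, at -0.94 (edgeR adjusted p = 0.0216), and the call of Acly was lost in 13 of the 20 alternatives. The share of all genes called is not given for any alternative in this section, so its counts have no background of their own. In S351A against cont. the number called higher was 1, and 2 with scaling by library totals and with totals omitting the 20 genes, 0 in the 6 libraries alone and at an adjusted p under 0.01, and 0 to 1 with a library left out. Those called lower numbered 2, and 6 with no filter, and 1 to 5 with a library left out: 5 when cont. replicate 2 was left out, 1 when S351A replicate 1 was and 4 when S351A replicate 3 was. In S351A against Atg7-KO, DESeq2 called 1 gene higher. The median of the 10 genes in Atg7-KO against cont. was -1.43, and -0.87 with scaling by library totals, -0.99 without the 20 genes, -1.18 with limma-voom, -1.15 with sex and -1.51 to -0.74 with a library left out, the last without cont. replicate 3. In S351A against cont. it was -0.88, and -0.35 with library totals, -0.46 without the 20 genes and -1.14 to -0.27 with a library left out, the last also without cont. replicate 3. Library size without the 20 genes shifted the median of all genes by 0.44 in Atg7-KO and 0.40 in S351A against cont.

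Signs changed in Atg7-KO against cont. with scaling by library totals for Scd1 (0.12), Me1 (0.26), Slc25a1 (0.50), Fads1 (0.017), Elovl2 (0.44), Insig1 (0.45), Nr1h3 (0.024) and Lpin1 (0.050), and without the 20 genes for Scd1 (0.025), Me1 (0.15), Slc25a1 (0.39), Elovl2 (0.33) and Insig1 (0.34). Slc25a1 was at 0.039 with a minimum of 10 counts in each library, 0.0033 in the 6 libraries and 0.23 after thinning, Lpin1 at 0.90 with limma-voom, Insig1 at 0.061 with sex and 0.067 after thinning, and Me1 at 0.089 with sex. Scd1 in S351A against cont. was at -0.0084 with no filter. Fasn in S351A against Atg7-KO was at -0.022 with library totals, -0.011 without the 20 genes, -0.036 with no filter, -0.0049 with sex and -0.012 after thinning. With a library left out, the ranges that crossed 0 were, in Atg7-KO against cont., -1.23 to 0.035 for Fasn, -0.99 to 2.41 for Lpin1, -0.16 to 0.13 for Slc25a1, -0.28 to 0.16 for Elovl2, -0.34 to 0.32 for Insig1 and -1.17 to 0.40 for Gpam. In S351A against cont. they were -1.21 to 0.049 for Fasn and -0.37 to 0.45 for Scd1, and in S351A against Atg7-KO -0.093 to 0.18 for Fasn, -0.16 to 0.55 for Acly, -0.25 to 0.49 for Elovl6, -0.11 to 1.07 for Acacb and -0.49 to 0.48 for Mlxipl.

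With the replicate block, 5 of the 10 genes were called lower and 1 higher in Atg7-KO against cont. (median -1.27), with the calls of Acly and Acaca lost and that of Elovl6 gained, 3 lower and 1 higher in S351A against cont. (median -0.77), with that of Thrsp gained, and 0 in S351A against Atg7-KO (median 0.20), and Lpin1 in Atg7-KO against cont. turned to 0.58.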

Other observations

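Genes that follow feeding and the time of day were read beside the lipogenic genes, since both move with them in liver. Of 9 genes of the fasting response, 3 fell (Acot1, G6pc and Pck1) and 2 rose (Fgf21 and Igfbp1) in Atg7-KO against cont., where 18.1% of all genes tested were called lower and 19.9% higher. Their summed level was 2544 to 3281 CPM in cont. livers, 661 to 982 CPM in Atg7-KO and 686 to 1828 CPM in S351A, with no overlap between cont. and either other group. Of 11 clock genes tested, 4 fell (Arntl, Clock, Nr1d1 and Nr1d2) and 0 rose in Atg7-KO against cont., beside the same 18.1% and 19.9%, and the sums were 411 to 441 CPM in cont. livers, 205 to 301 CPM in Atg7-KO and 160 to 276 CPM in S351A. The part of feeding and of the time of collection in the levels of the lipogenic genes was not tested. Of 2 erythroid markers tested 1, Alas2, was called lower in both comparisons with cont.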
